A study of Rattus norvegicus with 12 samples.

Results

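A set of 10 genes that mark microglia, the resident macrophages of the brain, was followed across 12 striatal samples of rats with a one-sided dopamine lesion. They were P2ry12, Tmem119, Cx3cr1, Cd68, Trem2, Tyrobp, Aif1, Itgam, Csf1r and Ly86. Members were every probe on the array whose accession mapped to 1 of these symbols, which gave 14 probes for 10 genes among 19412 features tested, 11110 of them with a gene symbol. All 14 probes passed the filter on dim probes, stood above background on all 12 arrays and were saturated on none.

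The rats were male Wistar, and every rat had received 6-hydroxydopamine, a toxin of dopamine neurons, in the left medial forebrain bundle. All were then screened with methamphetamine at 3 mg/kg and kept if they turned at least 7 times per minute. Treatment ran once daily for 7 days. The NL group was the striatum of the non-lesioned side after saline, and the SL group the lesioned side after saline. The DL group was the lesioned side after L-DOPA (levodopa, the precursor of dopamine) at 100 mg/kg, given after the peripheral decarboxylase inhibitor benserazide. The ZDL group was the lesioned side after the same L-DOPA and, 30 min later, zonisamide at 50 mg/kg; this anticonvulsant is also prescribed to patients with Parkinson's disease. Each group had 3 samples, and the labels do not say what their replicate numbers stand for. No age is given, and NL is the other side of a lesioned brain, not tissue of an intact rat; whether NL and SL samples share rats is not given in the sources used here.

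Microglia survey the brain with fine processes and, when tissue is injured, change shape, divide and take up debris. In the resting state they express P2ry12, a receptor for ADP that steers their processes, Tmem119, a membrane protein found on microglia and hardly on other brain cells, and Cx3cr1, the receptor for the neuronal chemokine Cx3cl1. In many settings activated microglia lose these homeostatic transcripts and gain those of phagocytosis. Among the latter are Cd68, a glycoprotein of lysosomes, Trem2, a receptor for lipids and debris, and Tyrobp (DAP12), the adaptor through which Trem2 signals. Aif1 (Iba1), Itgam (CD11b), Csf1r and Ly86 (MD-1) are expressed in both states and also in other myeloid cells. The transcription factor PU.1, encoded by Spi1, maintains the microglial lineage and binds GA-rich sites in many of these genes.

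For 5 of the 10 members (Cx3cr1, Cd68, Trem2, Itgam and Csf1r) a promoter was at hand, taken from RefSeq on build GRCr8 as the 250 bases before the annotated start. The letters GAGGAAG, a core that PU.1 binds, or CTTCCTC on the other strand, occurred in 3 of the 5, against 3425 of 33469 promoters of that length in the table (10.2%). The 2 windows below are shown because they belong to Itgam, the member with the widest differences between groups, and to Trem2, whose profile over the arrays was the one closest to that of the other members. Capitals mark the PU.1 letters. In Itgam they begin 151 and 40 bases before the start, in chr1:192089342-192089591 on the plus strand, and in Trem2 they begin 30 bases before it, in chr9:20151780-20152029 on the minus strand.
Itgam: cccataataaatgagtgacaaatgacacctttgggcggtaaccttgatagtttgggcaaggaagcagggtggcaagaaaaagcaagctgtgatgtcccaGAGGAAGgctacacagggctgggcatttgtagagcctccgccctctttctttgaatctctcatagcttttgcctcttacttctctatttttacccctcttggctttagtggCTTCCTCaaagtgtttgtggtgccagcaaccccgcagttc
Trem2: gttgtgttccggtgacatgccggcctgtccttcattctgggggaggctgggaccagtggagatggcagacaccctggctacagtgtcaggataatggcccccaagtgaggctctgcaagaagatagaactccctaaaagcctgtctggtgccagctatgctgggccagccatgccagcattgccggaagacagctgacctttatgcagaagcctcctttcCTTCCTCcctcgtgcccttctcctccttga
The Csf1r window held the PU.1 letters once, and the Cx3cr1 window did not hold them. The Cd68 window instead held the letters TGANTCA, a core bound by AP-1 factors and the same on both strands, at 2 places (80 and 205 bases before the start), letters found in 6.34% of all windows. No member window held both motifs, so no matches overlapped. A match describes the letters and not binding.

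Signals are given as log2 of the processed intensity minus the log2 of the array's own 75th percentile, so 0 is that percentile. Levels are compared between arrays, for 1 probe or for the mean or sum of a list of genes. Between genes, levels serve only to say which probes are dim or bright, and not as amounts of RNA. Tissue identity was checked with 10 genes of striatal spiny neurons, all of which passed the filter. Pdyn, the opioid precursor of the direct pathway, rose with L-DOPA by 1.75 on the log2 scale (adjusted p = 0.0151, limma), though this call was lost under 8 of 25 alternatives, among them leaving out SL replicate 1, DL replicate 2 or DL replicate 3. Choroid plexus RNA differed widely between arrays of a group. Ttr, a choroid plexus transcript, ran from 2.32 to 6.73 in NL and from -0.74 to 4.35 in SL. It ran from 4.31 to 7.27 in DL and from 2.72 to 6.67 in ZDL. The mean of 9 choroid plexus and ependymal genes, each centred on its mean over the arrays, was highest on NL replicate 3, at 3.66. The 12 arrays lay on 5 slides, slides 1, 2 and 4 holding more than 1 array. Spread between replicate spots, taken on the processed signal, was above 20% on 5 arrays, namely the 3 NL arrays, DL replicate 3 and ZDL replicate 3. Taken on the background-subtracted signal, it was 19.3% on SL replicate 2, 8.62% on SL replicate 3 and 18.8% on ZDL replicate 2. It was above 20% on every other array. The scanner software marked SL replicate 3 alone as in range, and every other array as one to evaluate. At an adjusted p of 0.05, the share of all features called was 0% in SL against NL, 0.433% (84) in DL against SL, 0.479% (93) in ZDL against DL and 0% in ZDL against SL. Of the L-DOPA calls 76.2% were higher in DL, and 90% (27 of 30) after normexp correction with quantile normalization. Samples are whole tissue, so fewer microglia and less RNA per cell cannot be told apart, and p-values measure the spread between these samples.

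None of the 10 members was called in any of the 4 comparisons, or by the moderated F test over the 4 groups that called 0.273% of all features. At an unadjusted p under 0.05, limma gave 1 of 10 members for the lesion, where the share of all features was 8.48%. It gave 2 members for L-DOPA (11.3% of all features), 5 for the addition of zonisamide (12.4%) and 4 for the joint treatment against saline (7.34%). By sign, all 10 members were higher in SL than in NL, with a median log2 difference of 0.21, in the main setting. That count was 5 of 10 after normexp and quantile normalization and 7 with slide as a fixed block, and it was 8 to 10 when 1 array was left out. The background by sign moved as well. In the main setting 55.4% of all features were higher and 44.6% lower in SL. After quantile normalization, where Ly86 alone among the members turned, 39.6% were higher, as the median of all features went from 0.05 to -0.09. The share higher was 38.2% after normexp and quantile normalization and 49.1% with slide as a fixed block. In DL against SL 4 members were higher and 6 lower (46.7% and 53.3% of all features), with a median of -0.22. In ZDL against DL 3 were higher and 7 lower (46.2% and 53.8% of all features), with a median of -0.38. In ZDL against SL all 10 were lower, with a median of -0.44, where 56.5% of all features were lower and 43.5% higher. Over the alternatives 8 to 10 were lower, Itgam and Tmem119 being those that turned after normexp and quantile normalization. In that setting 60.2% of all features were higher in ZDL. After quantile normalization, where Itgam alone turned, 58.7% were higher. Groups did not overlap for 0 members between SL and NL, where 17% of all features were so separated (8.66% higher and 8.34% lower in SL). Between DL and SL, 2 members were separated upward (Itgam and Ly86; 11.7% of all features) and 3 downward (P2ry12, Tmem119 and Cd68; 10.8%). Between ZDL and DL, 1 was separated upward (Tmem119; 6.82%) and 3 downward (Tyrobp, Itgam and Ly86; 10.5%). Between ZDL and SL none was separated upward (6.57%) and 4 were downward (Cd68, Trem2, Tyrobp and Ly86; 11.6%). The lesion and L-DOPA comparisons share the SL arrays, and the L-DOPA and zonisamide comparisons share the DL arrays, and ZDL against SL uses arrays of both, so a single array can move several comparisons.

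**Figure D1:**
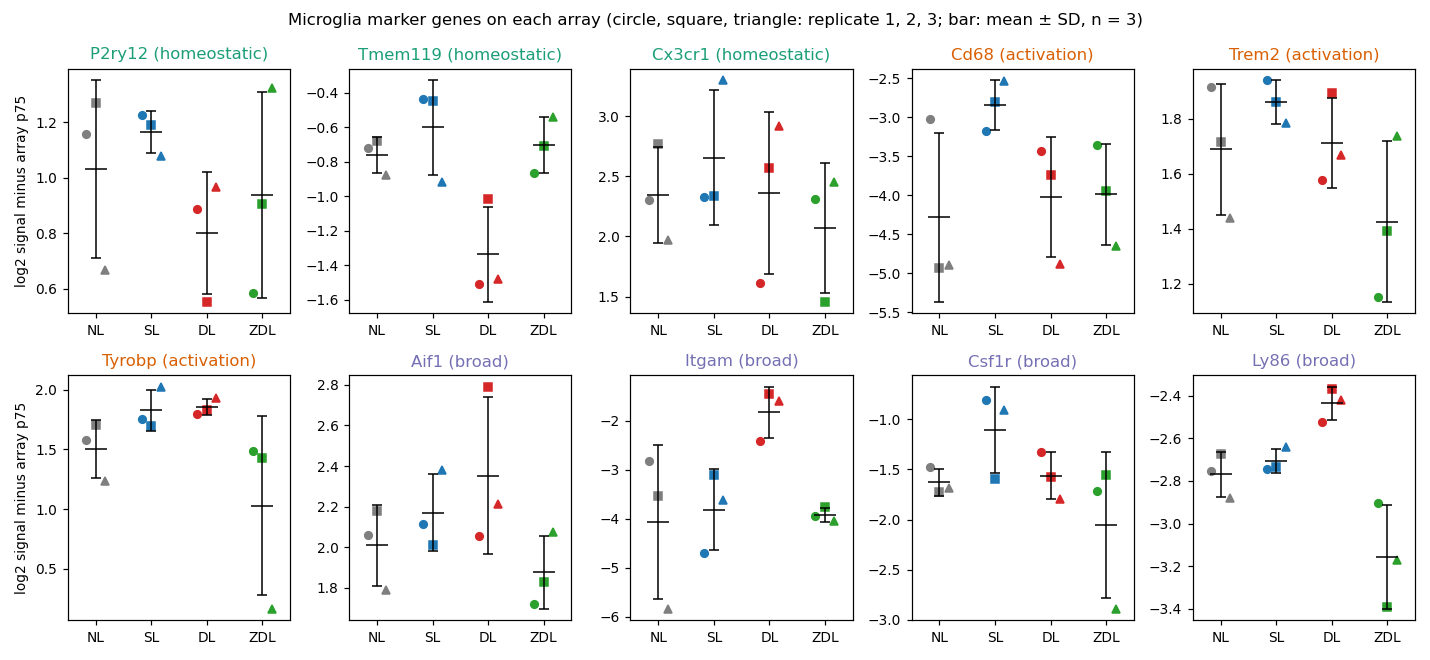
Each panel plots 1 microglia marker gene, with log2 signal minus the array's 75th percentile on the y axis and the groups NL, SL, DL and ZDL on the x axis; points are arrays and bars the mean ± SD (n = 3). Itgam stands highest on the 3 DL arrays, Tmem119 lowest on the same 3, and Ly86 lowest on the 3 ZDL arrays.

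**Figure D2:**
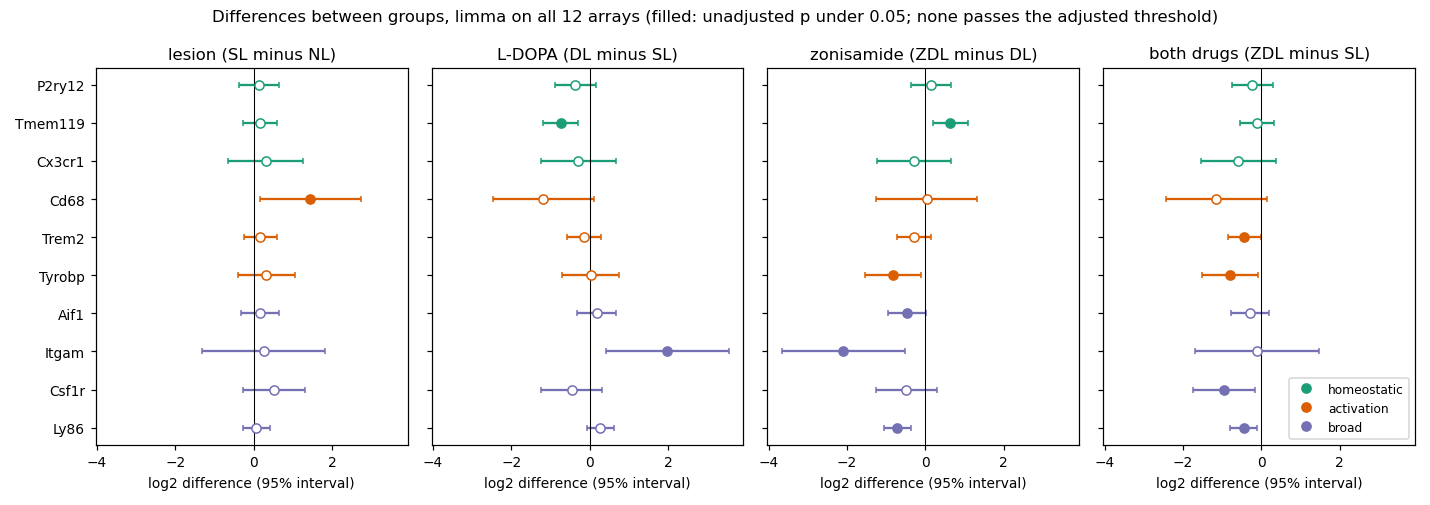
Each panel plots 1 comparison, with the log2 difference and its 95% interval on the x axis and the 10 genes on the y axis, coloured by role. Intervals use the limma SE and 8 residual degrees of freedom, fewer than the limma p-values use. The Aif1 interval in ZDL against DL, -0.97 to 0.016, therefore holds both signs at an unadjusted p of 0.0493 (limma). Filled points have an unadjusted p under 0.05, which 1 gene has in SL against NL, 2 in DL against SL, 5 in ZDL against DL and 4 in ZDL against SL; none passed after adjustment.

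All 3 homeostatic genes had a lower mean in DL than in SL, and Tmem119 was the one with the smallest p. Tmem119 read -0.72, -0.68 and -0.88 on the NL arrays, -0.44, -0.44 and -0.92 on SL, -1.51, -1.02 and -1.48 on DL, and -0.86, -0.71 and -0.54 on ZDL. Every DL array lay below every array of the other 3 groups, which overlapped each other. The difference DL minus SL was -0.74 ± 0.19 (SE, n = 3 per group), a ratio of 0.599, with an unadjusted p of 0.00304 and an adjusted p of 0.155 (limma). ZDL minus DL was 0.63 ± 0.19 (adjusted p = 0.197, limma), and ZDL stood 0.11 below SL. Its 10 spots spread over 2.23 log2 units on DL replicate 1 and 2.52 on DL replicate 3, and the linear mean of spots gave -0.65 (adjusted p = 0.176, limma). Over 25 alternatives the adjusted p for L-DOPA ran from 0.12 to 0.682. A second Tmem119 probe, printed once on the array where the first has 10 spots, gave -0.35 for L-DOPA and 0.33 for zonisamide. On it, too, no DL array reached the SL arrays, but DL and ZDL overlapped. Within slides, DL minus SL for Tmem119 was -1.08 on slide 1 and -0.57 on slide 4, and ZDL minus DL was 0.65, 0.94 and 0.31 on slides 1, 2 and 4.

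P2ry12, the ADP receptor, read 1.16, 1.27 and 0.67 on NL, 1.23, 1.19 and 1.08 on SL, 0.89, 0.55 and 0.97 on DL, and 0.58, 0.90 and 1.32 on ZDL. The SL arrays were tight and above all DL arrays, whereas the ZDL arrays spread from 0.58 to 1.32 and overlapped all other groups. DL minus SL was -0.36 ± 0.22 (adjusted p = 0.59, limma). Cx3cr1, the fractalkine receptor, ranged from 1.45 to 3.30, its highest array being SL replicate 3 and its lowest ZDL replicate 2, and every pair of groups overlapped. Its differences were 0.31 in SL against NL, -0.29 in DL against SL and -0.29 in ZDL against DL, each with an SE of 0.41. The 95% interval of the zonisamide difference, -1.25 to 0.66, holds changes of either sign. The ordering of group means was SL, NL, ZDL, DL for P2ry12, SL, ZDL, NL, DL for Tmem119 and SL, DL, NL, ZDL for Cx3cr1. SL thus led in all 3 genes, but it was not separated from NL in any of them.

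Among the activation genes, Cd68 had the only lesion difference with an unadjusted p under 0.05, and its replicate spots disagreed on several arrays. Cd68 read -3.03, -4.93 and -4.89 on NL, -3.18, -2.80 and -2.54 on SL, -3.43, -3.74 and -4.89 on DL, and -3.36, -3.95 and -4.66 on ZDL. NL replicate 1 overlapped the SL arrays, and the other NL arrays lay far below. SL minus NL was 1.44 ± 0.56, with an unadjusted p of 0.0272 and an adjusted p of 0.559 (limma). The Cd68 probe has 2 spots per array, and on 5 of 12 arrays they differed by more than 2 log2 units. On NL replicate 2 the spots read -6.85 and -3.02, and on NL replicate 3 they read -6.60 and -3.18, whereas the SL spots differed by at most 0.42. Averaging spots on the linear scale, which weights the brighter spot, gave 0.82 for the lesion in place of 1.44 (adjusted p = 0.543, limma), normexp with quantile normalization gave 0.51, and slide as a fixed block 0.39. Slide 1, the only slide with both groups, gave -0.15. DL minus SL was -1.18 ± 0.56 (adjusted p = 0.471) without overlap (22.4% of all features in either direction), and DL replicate 3 again held a wide pair of spots, at -6.64 and -3.14.

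**Figure D3:**
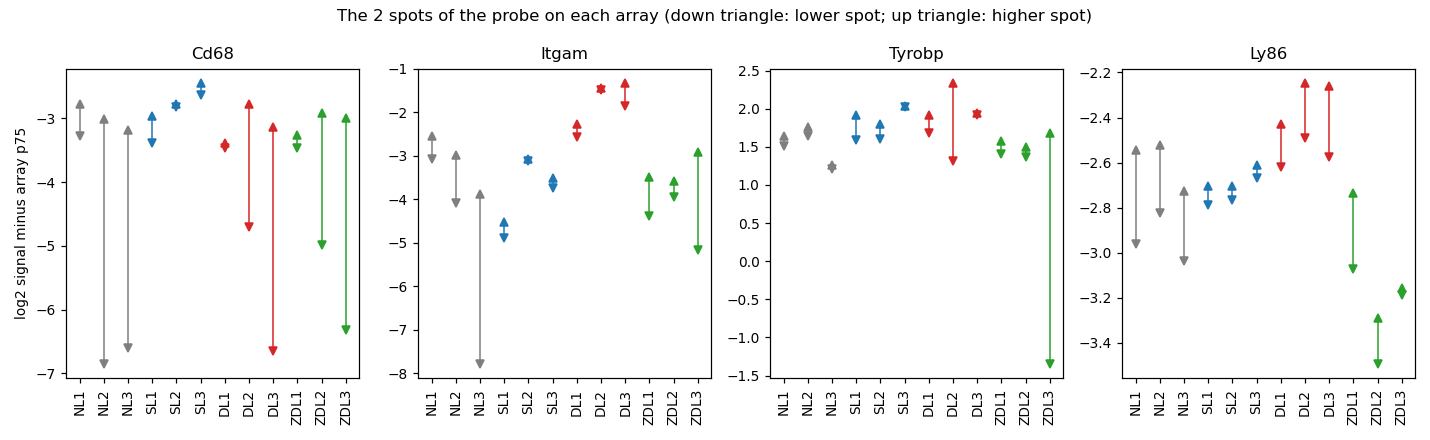
The 2 spots of the Cd68, Itgam, Tyrobp and Ly86 probes on each of the 12 arrays, with log2 signal minus the array's 75th percentile on the y axis and arrays on the x axis; a line joins the lower and the higher spot. Lower spots of Cd68 fall under -6 on NL replicates 2 and 3, DL replicate 3 and ZDL replicate 3, and the low Tyrobp value of ZDL replicate 3 comes from 1 spot at -1.35 beside another at 1.68.

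Tyrobp and Trem2, adaptor and receptor of 1 signalling unit, both had their lowest group mean in ZDL. Tyrobp read 1.57, 1.70 and 1.24 on NL, 1.75, 1.70 and 2.03 on SL, 1.80, 1.83 and 1.93 on DL, and 1.49, 1.43 and 0.16 on ZDL. The 3 ZDL arrays lay below all SL and DL arrays and overlapped NL. ZDL minus DL was -0.83 ± 0.31 (adjusted p = 0.311, limma), and -0.39 without ZDL replicate 3, whose spots differed by 3.02. Trem2 read 1.91, 1.71 and 1.44 on NL, 1.94, 1.86 and 1.78 on SL, 1.58, 1.89 and 1.67 on DL, and 1.15, 1.39 and 1.74 on ZDL. Only ZDL and SL did not overlap, by a gap between 1.74 and 1.78, and ZDL minus SL was -0.43 ± 0.19 (unadjusted p = 0.0411, adjusted p = 0.67, limma). All 3 activation genes were lower in ZDL than in SL without overlap, beside 11.6% of all features separated downward and 18.1% in either direction. For Cd68 this rests on spots that disagreed. The higher spots of ZDL replicates 2 and 3, at -2.92 and -2.99, lay within the SL spots, which ran from -3.39 to -2.44.

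The 4 broad markers gave the widest differences with the drugs, in Itgam, and the smallest p, in Ly86. Itgam, the alpha chain of complement receptor 3, read -2.81, -3.53 and -5.84 on NL, -4.70, -3.10 and -3.62 on SL, -2.42, -1.46 and -1.59 on DL, and -3.94, -3.76 and -4.05 on ZDL. All DL arrays were above every array of the other groups, which overlapped each other. DL minus SL was 1.99 ± 0.68, a ratio of 3.97, with an unadjusted p of 0.0153 and an adjusted p of 0.299 (limma). ZDL minus DL was -2.10 ± 0.68, a ratio of 0.234 (adjusted p = 0.236, limma). Over 25 alternatives these differences ran from 1.31 to 2.34 and from -2.39 to -1.27, with adjusted p no lower than 0.0977 and 0.0745. The within-slide values were 2.29 and 1.65 for L-DOPA and -1.52, -2.46 and -2.31 for zonisamide. The Itgam spots agreed within 0.54 on the DL arrays, and on NL replicate 3 they read -7.79 and -3.89. This probe is dim, with mean intensities of 41.1 to 166 on the SL arrays and 223.5 to 453 on the DL arrays.

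Ly86, a secreted protein that pairs with the Toll-like receptor homologue Cd180, read -2.75, -2.67 and -2.88 on NL, -2.75, -2.73 and -2.64 on SL, -2.52, -2.37 and -2.42 on DL, and -2.90, -3.39 and -3.17 on ZDL. Every ZDL array was below every array of the other 3 groups, and every DL array was above them. ZDL minus DL was -0.72 ± 0.15 (unadjusted p = 0.000642, adjusted p = 0.0696, limma), a ratio of 0.607. With slide as a random block the same difference had an adjusted p of 0.0494, the only setting of 25 in which a member was called, and the adjusted p reached 0.727 after normexp and quantile normalization. DL and ZDL did not overlap in 17.3% of all features and in 4 of the 10 members. A second Ly86 probe gave -0.69 for zonisamide, again with every ZDL array below every DL array. On it the other separations did not hold. Its SL arrays read -3.22, -2.56 and -2.03, overlapping both the DL arrays at -2.91, -2.13 and -2.44 and the ZDL arrays at -3.37, -3.09 and -3.08, and its NL arrays overlapped DL. On the first probe the zonisamide differences within slides 1, 2 and 4 were -0.38, -0.76 and -1.03. ZDL minus SL was -0.45 ± 0.15 (adjusted p = 0.656, limma). Cd180 itself read from -6.87 to -5.30 over the arrays, with a zonisamide difference of -0.24 ± 0.37.

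Aif1, the calcium-binding protein used to stain microglia, read 2.06, 2.18 and 1.79 on NL, 2.12, 2.01 and 2.38 on SL, 2.05, 2.79 and 2.21 on DL, and 1.72, 1.83 and 2.08 on ZDL. All groups overlapped, and ZDL minus DL was -0.48 ± 0.21 (unadjusted p = 0.0493, adjusted p = 0.401, limma). A second Aif1 probe, with 2 spots that agreed within 0.38 on all 12 arrays, gave -0.43 for zonisamide. It read 2.31, 2.46 and 2.26 on DL and 1.89, 1.64 and 2.21 on ZDL, so that here the groups did not overlap. Csf1r, the receptor for the survival factors Csf1 and Il34, read -1.47, -1.72 and -1.69 on NL, -0.81, -1.60 and -0.90 on SL, -1.33, -1.58 and -1.79 on DL, and -1.72, -1.55 and -2.89 on ZDL. ZDL minus SL was -0.95 ± 0.34 (adjusted p = 0.656, limma), and -0.53 without ZDL replicate 3. The second Csf1r probe did not follow: it gave -0.13 for ZDL minus SL, and read -2.60 on ZDL replicate 3, above its other ZDL arrays at -3.10 and -3.06. The Csf1r difference is therefore a value of 1 of its 2 probes.

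Homeostatic and activation genes were then compared within each array, after centring each gene on its mean over the 12 arrays. The homeostatic mean minus the activation mean was -0.26, 0.61 and 0.31 on NL, -0.15, -0.24 and -0.29 on SL, -0.67, -0.31 and 0.21 on DL, and -0.10, -0.09 and 0.98 on ZDL. The SL arrays stood together, below 0, and the other groups each spread over both signs. The group values were 0.22 ± 0.44 for NL, -0.23 ± 0.07 for SL, -0.26 ± 0.44 for DL and 0.26 ± 0.62 for ZDL (SD, n = 3). The means of NL and ZDL were above those of SL and DL, but the arrays of every pair of groups overlapped except those of SL and ZDL. The 2 arrays with the highest balance, NL replicate 2 and ZDL replicate 3, are among those with a Cd68 spot under -6. The median differences by role were 0.16 (homeostatic), 0.32 (activation) and 0.21 (broad) for the lesion, beside 0.05 over all features. For L-DOPA they were -0.36, -0.15 and 0.23 beside -0.03, and for zonisamide 0.14, -0.29 and -0.60 beside -0.03. In ZDL against SL they were -0.23, -0.80 and -0.37, beside -0.05. Single arrays moved many of these medians by more than 1.5 times. For zonisamide the homeostatic median was -0.057 without ZDL replicate 3, 0.011 without DL replicate 2, 0.22 without DL replicate 3 and 0.31 without ZDL replicate 1, so its sign is not settled. For L-DOPA the activation median was -0.081 without DL replicate 1 and -0.24 without DL replicate 2, the broad median 0.0999 without DL replicate 2, and the homeostatic median -0.57 without DL replicate 3. For the lesion the homeostatic median was 0.25 without NL replicate 2 and 0.10 without NL replicate 3 or SL replicate 1, and the activation median 0.19 without NL replicate 3. The broad lesion median was 0.39, 0.36 and 0.029 without NL replicates 1, 2 and 3, and 0.11 without SL replicate 3. In ZDL against SL the homeostatic median was -0.051 without ZDL replicate 1 and -0.42 without ZDL replicate 3. Averaged over all 10 centred genes, ZDL arrays read -0.18, -0.26 and -0.38, below the SL arrays at 0.12, 0.21 and 0.37 and the DL arrays at 0.04, 0.32 and 0.12. NL spanned 0.19, -0.02 and -0.54, and so overlapped all 3 lesioned groups.

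**Figure D4:**
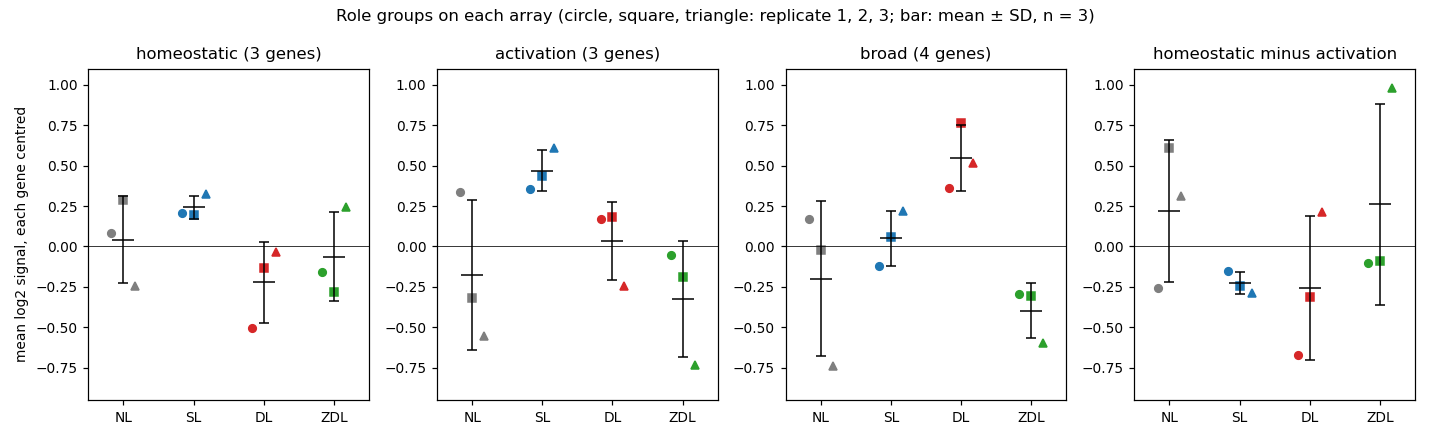
Mean of the centred log2 signals of the homeostatic, activation and broad genes, and the homeostatic minus activation balance, on each array by group; bars are mean ± SD (n = 3). The activation genes are highest in SL and the broad genes highest in DL, while the balance in ZDL runs from -0.10 to 0.98.

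The other genes of these programmes came from 3 lists with 42 genes, of which 39 were on the array and 37 were tested. For the lesion 19 were higher and 18 lower, and the median was 0.02. Of the 37, 3 had an unadjusted p under 0.05 (limma), all higher, beside 8.48% of all features in either direction. SL and NL did not overlap in 4, all higher in SL, beside 8.66% separated upward. For L-DOPA 29 were higher and 8 lower, with a median of 0.23, where 46.7% of all features were higher. For zonisamide 3 were higher and 34 lower (91.9%, beside 53.8% of all features), with a median of -0.39, and the lower count ran from 29 to 36 over 25 alternatives. None of the 37 was called in any comparison. At an unadjusted p under 0.05, limma gave 6 of 37 for L-DOPA, all higher (11.3% of all features in either direction), and 12 of 37 for zonisamide, all lower (12.4%). DL and SL did not overlap in 9 of 37, all higher in DL, where 11.7% of all features were separated upward. ZDL and DL did not overlap in 9 of 37, all lower in ZDL, beside 10.5% separated downward. These comparisons share the DL arrays. ZDL against SL gave 13 higher and 24 lower, of which 4 had an unadjusted p under 0.05 (7.34% of all features in either direction) and 9 were separated downward (11.6%). The 16 broad myeloid genes were lower in ZDL than in DL for 11, 11 and 16 genes within slides 1, 2 and 4.

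**Figure D5:**
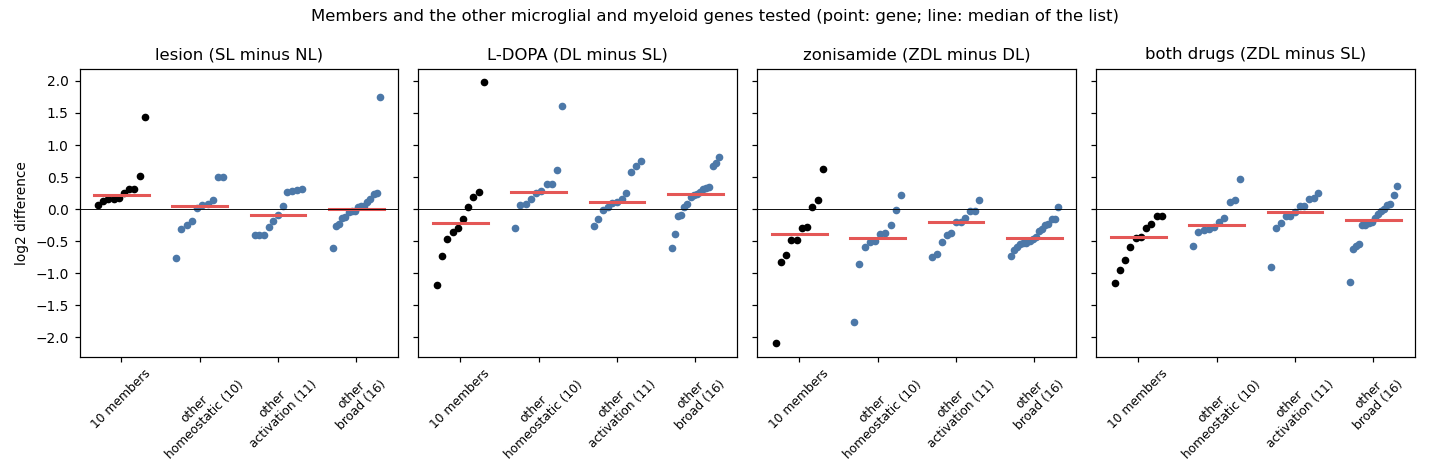
Log2 differences of the 10 members and of the other homeostatic (10), activation (11) and broad (16) genes tested, 1 panel per comparison; points are genes and lines the median of each list. The 3 related lists lie mostly above 0 for L-DOPA, with 29 of 37 higher, and mostly below 0 for zonisamide, with 34 of 37 lower.

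In the homeostatic list 9 of 10 genes were higher with L-DOPA and 9 of 10 lower with zonisamide, unlike Tmem119, which had the opposite signs. Gpr84, a receptor for medium-chain fatty acids that is in fact induced in inflammation, had 0.62 for L-DOPA (adjusted p = 0.237) and -0.50 for zonisamide (adjusted p = 0.304, limma). Sparc, a matrix protein, had 0.40 and -0.60. In the activation list, Apoe, a lipid carrier that astrocytes also make, read 6.51, 5.90 and 6.45 on SL, 6.27, 5.76 and 6.37 on DL, and at most 5.67 on ZDL. ZDL lay below both groups, at -0.75 against DL (adjusted p = 0.223) and -0.91 against SL (adjusted p = 0.621, limma). Cd63, a tetraspanin of late endosomes, had 0.68 for L-DOPA. In the broad list, Spi1 (PU.1) read -5.75, -5.32 and -5.94 on SL, -5.07, -4.62 and -4.89 on DL, and -5.61, -5.85 and -5.30 on ZDL, so DL was above both without overlap. Its differences were 0.81 (adjusted p = 0.158) and -0.72 (adjusted p = 0.182, limma). Spi1 was dim, at -4.62 or lower on every array, so signal over background limits it. Cd53, a leukocyte tetraspanin, was at -0.52 for zonisamide (adjusted p = 0.202) and -0.62 for both drugs (adjusted p = 0.617, limma).

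Ligands and partners of the members were examined in a list of 14 genes, 12 of which were tested. Tgfb1, the cytokine that sustains the homeostatic state, was the 1 gene of the list that was called, rising with L-DOPA. Tgfb1 read -4.67, -4.73 and -5.59 on NL, -4.79, -4.84 and -4.91 on SL, -3.59, -2.59 and -2.73 on DL, and -4.28, -4.96 and -4.18 on ZDL. All DL arrays were above all others. Its signal was dim, with a mean of -4.85 in SL. DL minus SL was 1.88 ± 0.33 (adjusted p = 0.0478, limma), a call lost under 18 of 25 alternatives, whose adjusted p ran from 0.0213 to 0.422. Leaving out any 1 array other than NL replicate 3 or DL replicate 1 lost it. ZDL minus DL was -1.51 ± 0.33 (adjusted p = 0.0844). Itgb2, the beta chain that pairs with Itgam, and Hcst (DAP10), an adaptor like Tyrobp, were picked after their values were seen. Their zonisamide differences were -0.83 ± 0.22 (adjusted p = 0.142) and -0.85 ± 0.21 (adjusted p = 0.121, limma), each with every ZDL array below every DL array. Itgb2 had 0.23 for L-DOPA, where Itgam had 1.99. Csf1, Il34, Cx3cl1 and Cd180 are named because they pair with members, also after their values were seen. Of the growth factors of Csf1r, Csf1 was at 0.13 for L-DOPA and -0.12 for zonisamide, Il34 at 0.20 and 0.01. Cx3cl1, the ligand of Cx3cr1, had 0.24 and -0.16.

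Marker lists of other cell types were set beside these comparisons, and none of the myeloid and lymphoid genes named here passed the adjusted threshold. Of 10 monocyte and neutrophil genes 4 were tested, and all 4 were higher with L-DOPA (median 0.93) and lower with zonisamide (median -1.25). Plac8 had 1.91 (adjusted p = 0.113) and -2.07 (adjusted p = 0.0764), and Camp 0.85 and -1.28 (adjusted p = 0.493 and 0.244, limma). The summed signal of the 4, on the linear scale relative to the 75th percentile, was 0.0988 to 0.15 in NL, 0.103 to 0.144 in SL, 0.186 to 0.388 in DL and 0.0919 to 0.116 in ZDL. The DL sums were above all others, but a sum gives most weight to its brightest gene, here Plac8, at -3.70, -2.10 and -2.52 on DL. Of the 4 genes, only Plac8 had every DL array above every array of the other groups. S100a8 and S100a9 in DL overlapped NL, and Camp in DL overlapped SL. All 4 genes were dim outside DL, and S100a8 and S100a9 were dim in DL too, at -4.68 or lower. S100a8 fell to -7.16 on SL replicate 2 and S100a9 to -6.91 on ZDL replicate 2, near the floor. A gene can pass the filter through 1 group alone, and whether DL alone admitted these genes was not tested. Ccr2, Ngp, Elane and Retnlg, defining genes of monocytes and neutrophils, were too dim to test. Of 8 genes of perivascular and border macrophages 4 were tested, with Mrc1 and F13a1 too dim. For zonisamide Pf4 had -1.29 (adjusted p = 0.187) and Lyve1 1.00 (adjusted p = 0.188, limma), in opposite directions. Lymphocyte genes were near the floor too, with sums of 0.0415 to 0.0889 over all arrays. In that list Cd4 had -1.06 and Cd3e 0.60 for L-DOPA.

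Genes of cells outside the myeloid lineage were lower with zonisamide too. All 8 endothelial and pericyte genes were lower (median -0.80), with sums of 6.51 to 9.43 in DL and 3.23 to 4.63 in ZDL. Cldn5, of tight junctions, had -0.92 (adjusted p = 0.0664) and Kdr, the VEGF receptor, -1.45 (adjusted p = 0.0664, limma). Within each of slides 1, 2 and 4, all 8 genes of the list were lower in ZDL. Of 9 oligodendrocyte genes 8 were lower (median -0.30), with Olig1 at -0.48 and Cnp at -0.91. Of 9 choroid plexus and ependymal genes 8 were lower as well (median -1.54), Ttr at -1.60 and Sostdc1 at -2.24, and 8 of 9 were higher with L-DOPA (median 2.87). Astrocyte genes were mixed, 5 of 8 lower, with Aldoc at 0.42 and Slc1a2 at -0.54. With Ttr as a covariate, the zonisamide differences were -0.71 for Ly86 (adjusted p = 0.141, limma) and -2.18 for Itgam (adjusted p = 0.312, limma), and 8 members were lower. The same covariate took the features called from 93 to 10 for zonisamide and from 84 to 0 for L-DOPA. The L-DOPA difference of Csf1r turned from -0.46 to 0.083. The part of these cell types in the differences of the members was not tested.

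The members did not share 1 profile. The correlation of a member with the mean of the other 9 over the 12 arrays ran from -0.16 for Tmem119 to 0.72 for Trem2, as a description of arrays that share groups and slides. The 8 genes outside the members whose profile over the 12 arrays was most like the mean of the standardised members were H2ac4 (r = 0.931), Gtf2h3 (0.927), Nudcd3 (0.904), C10h16orf89 (0.89), Rdm1 (0.889), Ddrgk1 (0.884), Krtap16-5 (0.883) and Eya3 (0.883). None of the 8 is in the myeloid lists. In all 8, NL replicate 3 was the lowest NL array and the ZDL mean was below the SL and DL means, as in the members' mean. The 8 were chosen for this likeness over the same 12 arrays, so the shared pattern follows from the choice and is no separate result.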

How the data were processed

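Striatal RNA of 12 samples, 3 in each of 4 groups, was hybridised to 1-colour Agilent arrays. The deposited scanner files hold intensity values per spot, which the authors produced, per the file headers, with Feature Extraction 10.7.3.1. The background-subtracted processed intensity was used. Its log2, less the 75th percentile log2 of each array, was computed here, and the spots of each probe were averaged without outlier spots. A probe was kept if, in some group, a share of 0.5 or more of its spots was well above background on each of the 3 arrays, and a gene was represented by its brightest kept probe. Probes were named through their accessions in a RefSeq table.

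All 19412 features entered 1 limma fit (limma 3.58.1, R 4.3.3) of 4 group means, with 8 residual degrees of freedom and Benjamini-Hochberg adjustment over all of them; the fit was tested on simulated data. The number of arrays limits the precision. The genes named are all 10 members and, of each other list, those that passed or else the 2 with the smallest p; 8 genes are named for likeness, and Ttr as a gauge of choroid plexus. Outside this rule, 6 ligands and partners (Itgb2, Hcst, Csf1, Il34, Cx3cl1 and Cd180) were named after their values were seen. Members and lists were chosen with earlier results of these data known.

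Replicate numbers were checked as pairs: residuals of same-numbered DL and ZDL arrays correlated at 0.37, 0.194 and 0.254 over all features, above 0.1 in every pair. These pairs also share a slide (1, 4 and 2), so number and slide cannot be told apart. In the other comparisons the correlations ran from -0.183 to 0.198, and the block by number was an alternative. Other alternatives were quantile and normexp normalization, the probe filter, the probe rule, the groups fitted, a trended prior, slide as a block, Ttr as covariate, and omitting arrays; the linear mean of spots, and the counts by sign and the balance under these settings, were added after seeing the data.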

Additional observations from a re-analysis of the deposited data

How the results depend on the processing

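Of 40 member differences under up to 25 alternatives, 954 of 990 values kept their sign and side of the threshold, 35 turned sign and 1 passed (Ly86 for zonisamide with slide as a random block, -0.72, 1 member called). Turned signs were, for the lesion, Ly86 -0.10 (quantile), P2ry12 -0.11, Tmem119 -0.053, Trem2 -0.012, Aif1 -0.0646 and Itgam -0.13 (normexp and quantile), Itgam -0.13 (linear spot mean), and Tyrobp -0.13, Aif1 -0.10 and Itgam -1.05 (slide fixed). For both drugs Itgam gave 0.078 (quantile), 0.033 (normexp), 0.048 (linear spots), 0.069 (slide fixed) and 0.0061 (Ttr), and Tmem119 0.024 (normexp). With Ttr, Csf1r gave 0.083 for L-DOPA and Cd68 -0.17 for zonisamide; without the high-spread arrays Tyrobp gave -0.012 and Cd68 -0.073. The cause was not tested.

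Leaving out each array in turn, the lesion range was -0.050 to 0.25 for P2ry12, -0.015 to 0.52 for Cx3cr1 and -0.64 to 0.88 for Itgam. For L-DOPA it was -0.57 to 0.084 for Cx3cr1, -0.036 to 0.13 for Tyrobp and -0.036 to 0.33 for Aif1. For zonisamide it was -0.057 to 0.31 for P2ry12, -0.67 to 0.016 for Cx3cr1 and -0.41 to 0.36 for Cd68, and for both drugs -0.56 to 0.25 for Itgam. No member was called in these fits.

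Counts of all features called moved more. For L-DOPA they were 30 (normexp), 48 (no filter), 0 (2 groups only, 2582 at unadjusted p under 0.05 by limma), 34 (replicate block), 0 (slide fixed, 1649), 0 (Ttr, 1163) and 1 (high-spread arrays out). For zonisamide they were 8, 45, 0 (1962), 13, 0 (2743), 10 and 1 in the same order, and 188 with slide as a random block. The F test gave 35 (quantile), 1 (normexp), 9 (no filter), 81 (mean of probes), 84 (linear spots), 2 (replicate block), 0 (slide fixed, 2061), 108 (slide random) and 0 (Ttr, 1770). The homeostatic median for L-DOPA was -0.64 with Ttr. Leaving out 1 array gave 0 to 13 for the lesion, 2 to 210 for L-DOPA, 0 to 253 for zonisamide, 0 to 3 for both drugs and 1 to 118 for the F test. The highest 210 and 253 came without DL replicate 1 and the lowest without SL replicate 1 (2) and ZDL replicate 2 (0). Without DL replicate 2 the counts were 8 and 6, and without DL replicate 3 they were 10 and 5. The block by replicate number changed no call of a member. Signal over background limits Itgam, Cd68 and Ly86, the dim members, and 3 arrays a group cannot give an exact permutation p below 0.1.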
